A study of Mus musculus with 8 samples.

Results

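The 43 genes described here carry out DNA replication and mitosis, and they were taken as a list of symbols kept where 4 or more of the 8 libraries had 10 or more counts. All 43 were among the 55573 genes of the table, and all 43 passed this filter, as did 20153 genes in all. Microglia, the resident macrophages of the brain, had been sorted at postnatal day 60 from 4 control mice and from 4 mutants of the genotype *Smad2/3* fl/fl;*Cx3cr1* Cre, with 1 RNA-seq library per mouse. In the mutants, Cre from the *Cx3cr1* locus acts on floxed *Smad2* and *Smad3* in microglia and related macrophages, and their products are the transcription factors of the canonical branch of TGFβ signaling. The labels give the mutants as lacking *Smad2/3* in microglia, and the genotype and the C57BL6/J background are those of the Methods. The labels call the controls wild-type littermates, whereas the Methods state that control mice in general carried a floxed allele with Cre. Another deposit is named in the Methods for the *Smad2/3* data, so that the match of these libraries to that description rests on genotype and cell type. The comparison throughout is that of mutants with controls.

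Before the members, the labels and the libraries were checked. *Smad3* fell by 1.33 on the log2 scale (SE 0.36, edgeR adjusted p = 0.0429), whereas *Smad2* had a log2 fold change of -0.34 (SE 0.22, adjusted p = 0.340). The counts cover whole genes, so that reads from a transcript lacking the floxed exons still count. The part of such reads in the *Smad2* value was not tested. On the CPM scale (a gene's counts relative to the scaled total of its library), all 4 controls expressed *Xist* (99.5 to 183 CPM) and all 4 mutants the Y-linked gene *Ddx3y* (9.74 to 59.8 CPM), so that genotype and sex cannot be told apart in these libraries. None of the 43 genes lies on the X or Y chromosome. Libraries held 35639502 to 41946479 counts. Of 10 microglial markers, 8 were lower in mutants, among them *P2ry12* (log2 fold change -4.84), while *C1qa* (-0.04, adjusted p = 0.940) stayed abundant in every mouse (2646 to 4504 CPM). Of 8 markers of border-associated macrophages, 6 were higher, with *Pf4* at 8.64 to 15.4 CPM in controls and 652 to 1374 CPM in mutants. Of 9 lymphocyte markers, *Cd3e* (1.87) and *Nkg7* (1.83) were higher.

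Proliferating cells copy their DNA in S phase and divide it in M phase. In G1, origins are licensed when CDC6 helps to load the MCM2 to MCM7 helicase onto DNA, and CDC45 and the GINS complex turn that helicase on. E2F factors and the E cyclins start S phase, ribonucleotide reductase, TYMS and TK1 supply the nucleotides, and PCNA clamps the polymerases to DNA. CDK1 with the A and B cyclins drives entry into mitosis, the Aurora and Polo kinases build the spindle, centromere proteins hold it to chromosomes, and CDC20 starts anaphase. Adult microglia divide seldom and renew themselves within the brain. Microglia in development, injury or disease can proliferate, and antibodies to Ki-67, the product of *Mki67*, are the usual stain for this.

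Many of these genes share short promoter elements. The cell cycle genes homology region (CHR, TTTGAA) and CCAAT boxes are typical of mitotic genes, and E2F sites (searched as TTTCCCGC, TTTGGCGC and TTTCGCGC) are typical of replication genes. RefSeq promoter windows on GRCm38.p6, from 250 bases before to 50 bases after each gene's start, were at hand for 36 of the 43 genes. The genes without a window were *Aurkb*, *Mcm4*, *Ccne2*, *Ccna2*, *Tpx2*, *Gins2* and *Kif20a*. On either strand, CHR letters were in the windows of 14 of 19 mitotic members (73.7%) and 3 of 17 replication members (17.6%), against 20.2% of 27025 genes with a window. E2F letters were in 7 of the 17 replication members (41.2%) and in 1 of the 19 mitotic members, *Cdk1*, against 2.12% of all genes. CCAAT was in 17 of the 19 mitotic members (89.5%) and 11 of the 17 replication members (64.7%), against 41.1% of all genes. A match of letters is a description and no evidence that a factor binds there. The next lines show the stretch from 140 bases before to 30 bases after the start for *Cdk1*, *Cenpa* and *Cenpf*, the genes with a window and a match that were higher in mutants, for *Ccnb1*, the member with the lowest log2 fold change, and for *Mcm6* and *Mcm3*, helicase subunits with log2 fold changes on either side of 0. They were chosen after the values were seen, and capitals mark CHR, CCAAT and E2F letters on either strand.
*Cdk1* (chr10:69352883-69353052, minus strand): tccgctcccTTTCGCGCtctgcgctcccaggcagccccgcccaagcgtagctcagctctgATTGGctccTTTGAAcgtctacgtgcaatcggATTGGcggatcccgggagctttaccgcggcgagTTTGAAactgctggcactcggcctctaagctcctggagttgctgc
*Cenpa* (chr5:30666746-30666915, plus strand): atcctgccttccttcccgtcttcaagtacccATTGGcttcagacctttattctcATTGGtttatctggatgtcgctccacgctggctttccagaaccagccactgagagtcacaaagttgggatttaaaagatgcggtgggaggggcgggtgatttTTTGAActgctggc
*Cenpf* (chr1:189688057-189688226, minus strand): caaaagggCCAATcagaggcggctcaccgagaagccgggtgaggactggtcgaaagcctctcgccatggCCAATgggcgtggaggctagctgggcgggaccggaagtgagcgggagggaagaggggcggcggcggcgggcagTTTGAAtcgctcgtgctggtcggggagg
*Ccnb1* (chr13:100786457-100786626, minus strand): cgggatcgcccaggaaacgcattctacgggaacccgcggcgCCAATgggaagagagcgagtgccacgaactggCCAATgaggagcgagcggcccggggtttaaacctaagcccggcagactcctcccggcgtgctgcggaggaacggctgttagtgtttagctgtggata
*Mcm6* (chr1:128359676-128359845, minus strand): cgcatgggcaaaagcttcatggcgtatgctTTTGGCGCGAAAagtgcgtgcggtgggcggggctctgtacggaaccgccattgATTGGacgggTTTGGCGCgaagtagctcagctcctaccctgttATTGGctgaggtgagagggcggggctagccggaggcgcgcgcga
*Mcm3* (chr1:20820283-20820452, minus strand): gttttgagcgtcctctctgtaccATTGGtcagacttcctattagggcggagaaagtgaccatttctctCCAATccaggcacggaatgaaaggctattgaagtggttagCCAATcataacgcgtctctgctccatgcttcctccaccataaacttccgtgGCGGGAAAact
In *Cdk1*, the kinase that drives mitosis, CHR letters began 71 and 15 bases before the start, with an E2F match 131 bases before it. In *Cenpa* and *Cenpf* the CHR letters began 17 and 3 bases after the start. *Ccnb1*, cyclin B1 and the partner of CDK1, had 2 CCAAT boxes and no TTTGAA in its window. No other form of the CHR was searched. In *Mcm6* the first run of capitals joins 2 overlapping E2F matches, 1 on each strand, and the E2F match of *Mcm3* shown here began 20 bases after the start. Of the 17 members with CHR letters, 3 were higher in mutants (*Cdk1*, *Cenpa* and *Cenpf*) and 14 were not called, and the log2 fold changes of the 17 ran from -1.08 to 1.94 with a median of -0.05. *Tk1*, which also was higher in mutants, had a window with none of these letters.

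Of the 43 cell cycle genes, 5 were higher in *Smad2/3* mutants, none was lower and 38 were not called (edgeR quasi-likelihood test, adjusted p under 0.05 over all 20153 genes). The 5 were the centromere genes *Cenpf* and *Cenpa*, the helicase activator gene *Gins2*, the thymidine kinase gene *Tk1* and *Cdk1*. This was 11.6% of the members, beside 878 of 20153 genes called higher (4.36%), and 0 members beside 1607 genes called lower (7.97%). At an unadjusted p under 0.05, 1 member was lower (*Mcm3*), and DESeq2 also called that 1 lower. The median log2 fold change of the members was -0.05, with 20 above and 23 below 0, and over all genes tested it was 0.01. In bulk RNA, a change in the number of cells that express a gene and a change in its RNA per cell cannot be told apart.

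**Figure D1:**
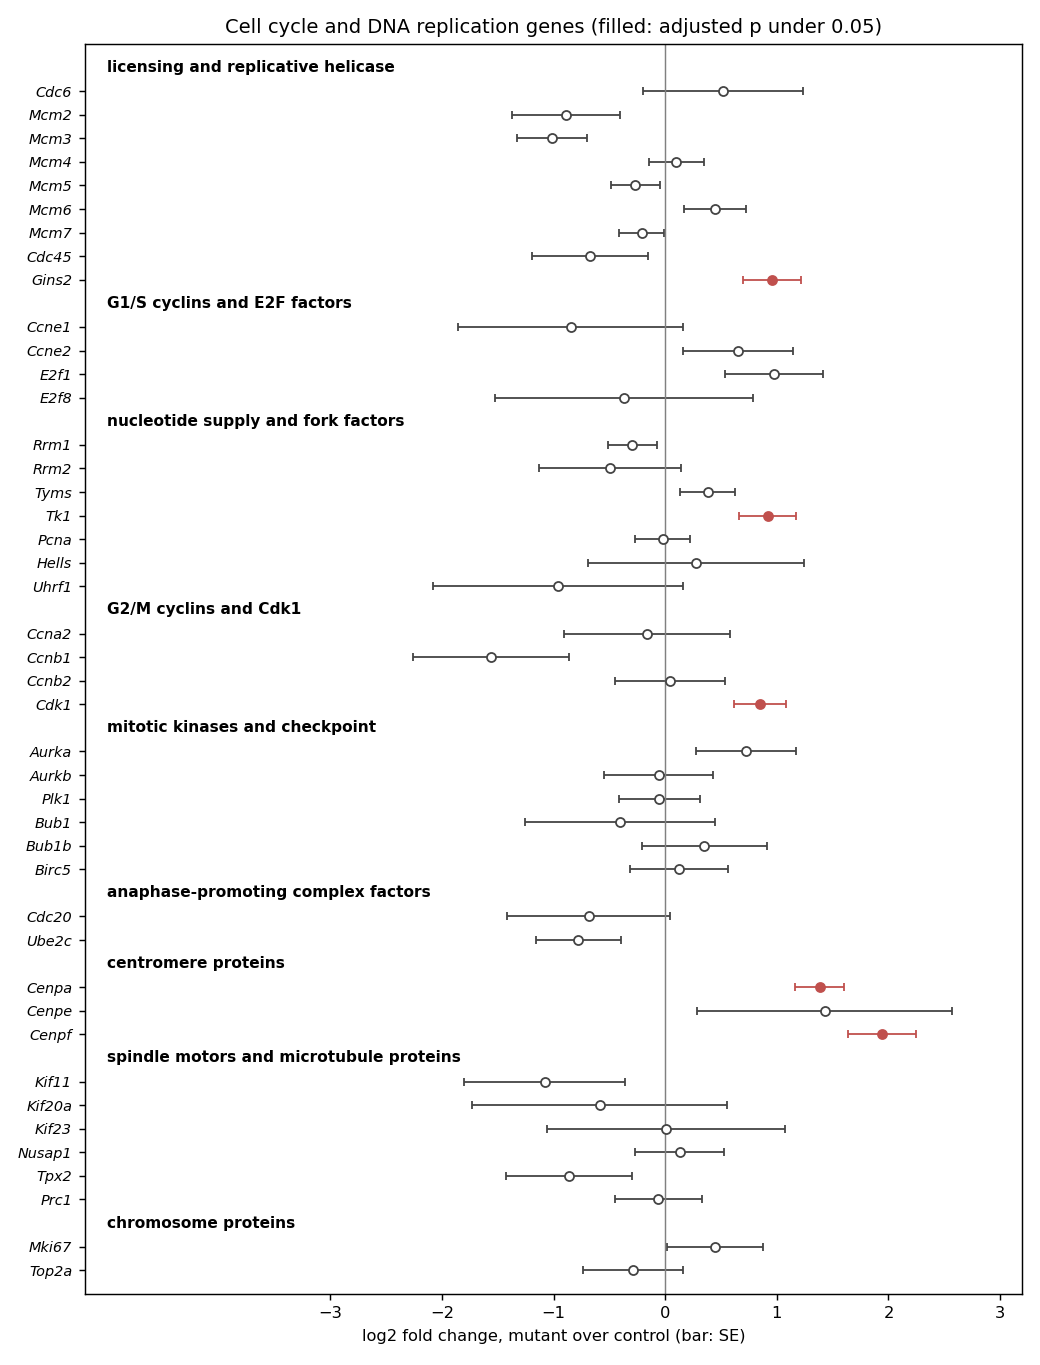
Log2 fold change of mutants over controls for each of the 43 genes (points) with its SE (bars), grouped by role, where filled points passed an adjusted p of 0.05. The 5 filled points lie between 0.85 and 1.94, and the open points spread over both sides of 0, from -1.56 to 1.43.

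*Cenpf* encodes a large protein of the outer kinetochore that peaks in G2 and M phase, and it had the largest log2 fold change of the members. It lies at chr1:189640606-189688086 on the minus strand of GRCm38. Controls 1 to 4 had 3.57, 2.76, 1.73 and 2.99 CPM (138, 106, 62 and 111 counts). Mutants 1 to 4 had 10.7, 8.64, 10 and 13.1 CPM (412, 400, 360 and 476 counts). Every mutant lay above every control. The log2 fold change was 1.94 (SE 0.30, adjusted p = 0.00357).

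*Cenpa* encodes the histone H3 variant that marks the centromere, and it lies at chr5:30666777-30674830 on the plus strand. Its level was 12.1, 9.45, 8.42 and 10.4 CPM in controls 1 to 4. It was 33.0, 21.6, 29.3 and 21.5 CPM in mutants 1 to 4. Again the groups did not overlap, and the log2 fold change was 1.38 (SE 0.22, adjusted p = 0.00382). The calls of *Cenpa* and *Cenpf* held under all 15 alternative settings, with each mouse left out in turn among them.

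The remaining centromere gene, *Cenpe*, the motor that moves chromosomes to the middle of the spindle, had no counts in mutant 1. Its level was 1.12 to 2.46 CPM in controls and 3.46, 5.74 and 11.8 CPM in mutants 2 to 4. The log2 fold change was 1.43 (SE 1.14, adjusted p = 0.460). Without mutant 1 it was 1.84 and was called (adjusted p = 0.0496).

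*Cdk1* lies at chr10:69335146-69352938 on the minus strand. It had 9.57, 11.4, 9.76 and 6.56 CPM in controls 1 to 4. Mutants 1 to 4 had 14.5, 15.0, 19.4 and 18.2 CPM, all above the highest control. Its log2 fold change was 0.85 (SE 0.23, adjusted p = 0.0433). None of the genes for the cyclins that CDK1 pairs with was called. *Ccnb1* had 2.69, 1.59, 3.39 and 4.92 CPM in controls and 1.09, 1.30, 1.73 and 0.138 CPM in mutants (log2 fold change -1.56, SE 0.70, adjusted p = 0.178). The ranges of *Ccnb1* overlapped, and 23.4% of its 50-base words are shared with other genes' transcripts, among them its pseudogene *Ccnb1-ps*. *Ccnb2* (log2 fold change 0.04, adjusted p = 0.970) and *Ccna2* (-0.16, adjusted p = 0.920) were not called, and both were lowest in mutant 1 and highest in mutant 3 of all 8 mice.

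*Tk1*, at chr11:117815526-117826092 on the minus strand, encodes the enzyme that salvages thymidine for DNA synthesis. It had 3.59, 6.12, 5.34 and 4.09 CPM in controls 1 to 4. In mutants 1 to 4 it had 9.22, 8.38, 9.39 and 9.17 CPM, a narrower range than that of the controls and wholly above it. The log2 fold change was 0.92 (SE 0.26, adjusted p = 0.0492).

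*Gins2* encodes a subunit of the GINS complex and lies at chr8:120578633-120589304 on the minus strand. It had 4.32, 4.27, 5.04 and 4.25 CPM in controls 1 to 4. Mutants 1 to 4 had 8.70, 9.87, 9.97 and 6.10 CPM, each above every control. The log2 fold change was 0.95 (SE 0.26, adjusted p = 0.0430). Of its annotated exon bases, 67.3% also lie in exons of *Gse1*, and without strand information reads there cannot be told apart. *Gse1* itself had a log2 fold change of -0.76 (adjusted p = 0.167).

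The calls of *Cdk1*, *Tk1* and *Gins2* lay close to the threshold. Those of *Cdk1* and *Tk1* were lost when any 1 of the 8 mice was left out (adjusted p 0.0515 to 0.0979 and 0.0631 to 0.0955). That of *Gins2* was lost without any mouse but mutant 4 (adjusted p 0.0676 to 0.114). Without replicate 1 of both groups, the mice with the most neuronal RNA, 2 members were called higher, *Cenpa* and *Cenpf*.

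**Figure D2:**
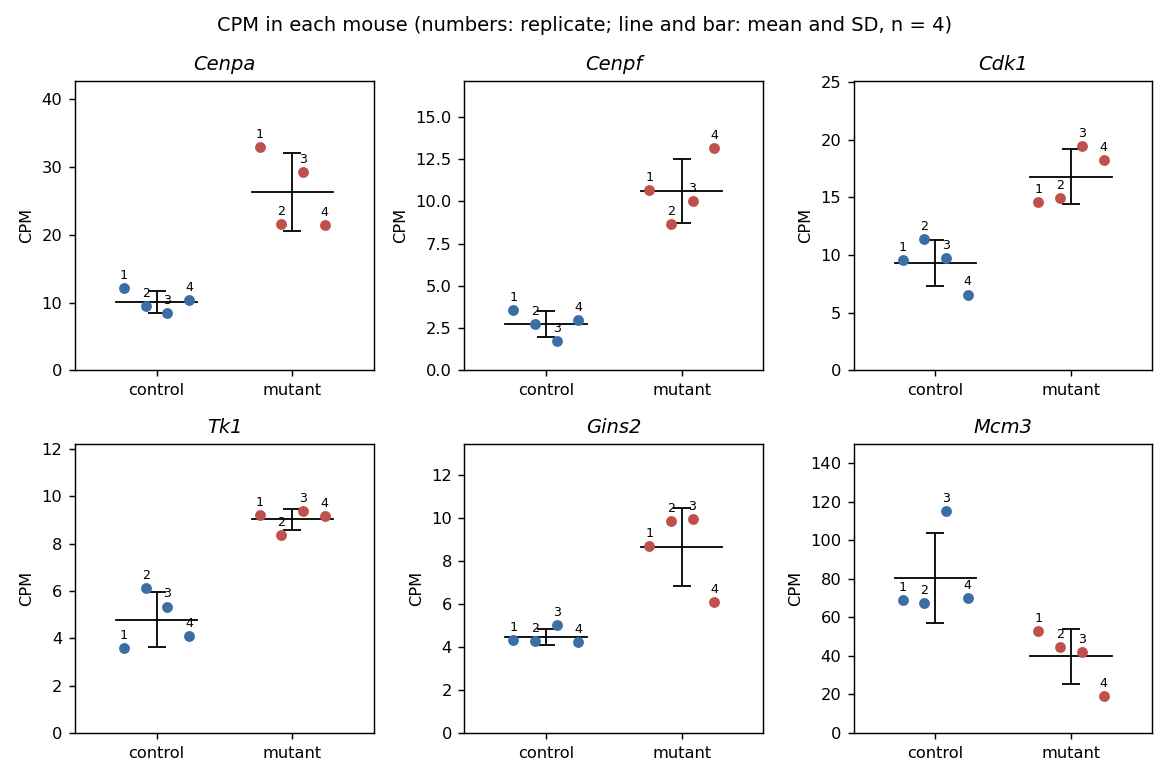
CPM in each mouse (points, numbered by replicate) with the mean and SD of 4 mice per group (line and bar) for the 5 genes higher in mutants and for *Mcm3*. For the 5 genes every mutant lies above every control, and for *Mcm3* every mutant lies below.

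All 4 mutants lay above all 4 controls in 5 of the 43 members (11.6%), the same 5 genes, beside 9.04% of all genes tested. All mutants lay below all controls in 1 member (2.33%), *Mcm3*, beside 13% of all genes.

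*Mcm3*, at chr1:20802968-20820312 on the minus strand, encodes 1 of the 6 subunits of the helicase ring. It had 68.9, 67.6, 115 and 70.1 CPM in controls 1 to 4 and 53, 44.7, 42.1 and 19.3 CPM in mutants 1 to 4. Control 3 was far above the other controls and mutant 4 the lowest of all. The log2 fold change was -1.02 (SE 0.32, adjusted p = 0.0685), which did not pass the test. It passed with DESeq2 (adjusted p = 0.0148) and among genes with at least 10 counts in all 8 libraries (adjusted p = 0.0437).

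The ring takes up 1 copy of each subunit, and yet the subunits' RNA did not stand at 1 level. In RPKM, which divides CPM by the exon length in kilobases, *Mcm3* had a mean of 21.5 ± 6.20 (SD, n = 4) in controls, and *Mcm2*, *Mcm4*, *Mcm5*, *Mcm6* and *Mcm7* had means of 2.77 to 6.07. That length joins all annotated exons, and need not be that of the transcripts present. It is 6956 bases for *Mcm2* and from 3589 (*Mcm4*) to 4666 (*Mcm6*) for the rest. In each control, the RPKM of *Mcm3* was 3.54 to 6.17 times the median of the other 5 subunits, and in each mutant 1.04 to 2.81 times. These ratios contain the *Mcm3* values above and were given no test. *Mcm2* had a log2 fold change of -0.89 (adjusted p = 0.268), *Mcm6* of 0.45 (adjusted p = 0.328), *Mcm5* of -0.27 (adjusted p = 0.469), *Mcm7* of -0.21 (adjusted p = 0.549) and *Mcm4* of 0.10 (adjusted p = 0.841). *Mcm2* lay at 7.39 to 27.2 CPM in the control mice and 5.33 to 17.2 CPM in the mutants. Of the words in *Mcm7* transcripts, 23.3% are shared with other genes.

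**Figure D3:**
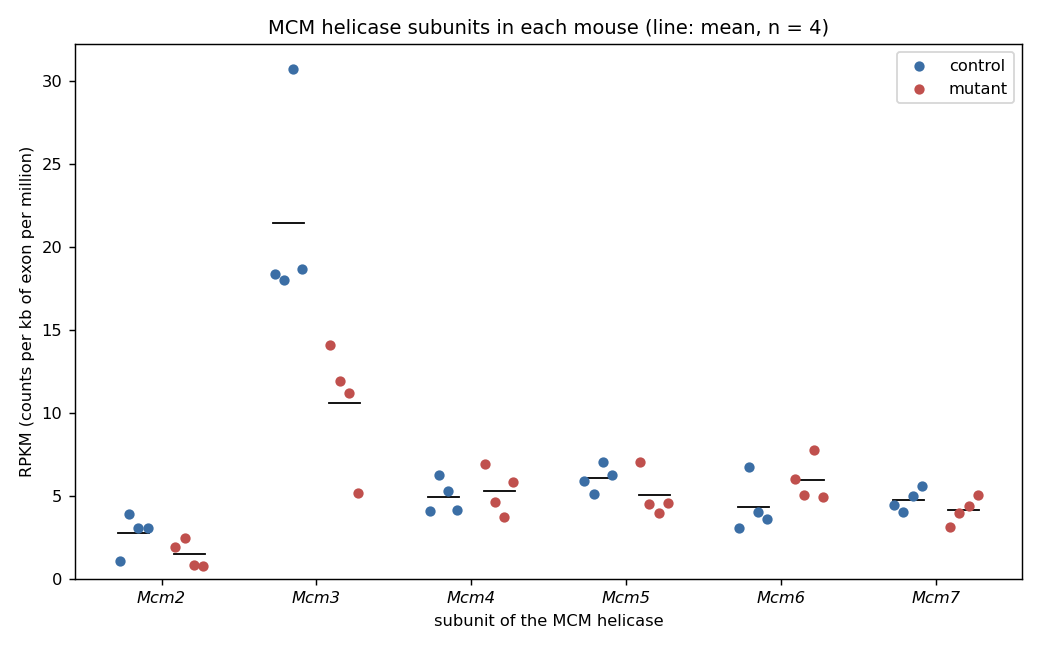
RPKM of the 6 MCM helicase subunits in each mouse (points) with the mean of 4 mice per group (line). *Mcm3* sits at 18.0 to 30.7 in controls and 5.15 to 14.1 in mutants, and every value of the other 5 subunits is under 8.

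Of the other licensing genes, the helicase loader gene *Cdc6* had a log2 fold change of 0.52 (adjusted p = 0.689), with 6 counts in control 4 and 70 to 101 in the other controls. *Cdc45*, which joins the helicase at firing, had one of -0.67 (adjusted p = 0.440). Its lowest and highest values were 2.56 and 8.10 CPM in controls and 1.06 and 4.47 CPM in mutants.

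The genes that start S phase were not called. *E2f1*, an activating E2F, had 4.50, 16.9, 9.15 and 9.06 CPM in controls 1 to 4 and 28.6, 22.1, 17.4 and 9.58 CPM in mutants 1 to 4. Mutants 1 to 3 were above all controls and mutant 4 was below control 2, and the log2 fold change was 0.97 (SE 0.44, adjusted p = 0.183). *E2f8*, a repressing E2F, had 0.588 to 2.60 CPM in the controls and 0 to 3.68 CPM in the mutants (log2 fold change -0.37, adjusted p = 0.875). The E cyclin genes differed in sign, with -0.85 for *Ccne1* (adjusted p = 0.638), which had no counts in mutant 4, and 0.65 for *Ccne2* (adjusted p = 0.436). For *Ccne2*, 17.4% of exon bases are shared with *Ints8*.

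Beside *Tk1*, 6 genes for nucleotide supply and the fork were not called. *Pcna* was the member with the highest RPKM (23.0 ± 7.43 in controls and 22.6 ± 3.99 in mutants, SD, n = 4), and its log2 fold change was -0.02 (adjusted p = 0.964). Of its words, 19.1% are shared with *Pcna-ps2*, which was itself counted at a mean of 40.7 CPM in controls, so that its level is uncertain. The ribonucleotide reductase genes had -0.29 (*Rrm1*, adjusted p = 0.427) and -0.49 (*Rrm2*, adjusted p = 0.665). *Rrm2* was 6.48 to 13.1 CPM in controls, 2.42 to 3.30 CPM in mutants 1 to 3 and 16.8 CPM in mutant 4. Without mutant 4 its log2 fold change was -1.64 and passed the test (adjusted p = 0.0222), so that 1 mouse decided the call. Mutant 4 also held the most erythroid RNA, with 10879 CPM summed over 6 markers against 280 to 3149 CPM in the other mice, and the part of this in the *Rrm2* value was not tested. *Tyms*, thymidylate synthase, had 0.38 (adjusted p = 0.356).

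The chromatin genes of the fork were uneven among controls. *Uhrf1*, which carries DNA methylation through replication, had 0 counts in control 1 and 164 to 322 counts in the other controls, against 35 to 167 in mutants. The chromatin remodeller gene *Hells* had 1 count in control 1 and 52 to 130 in the other controls. Their log2 fold changes were -0.96 (SE 1.12) and 0.28 (SE 0.97).

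The mitotic kinase and checkpoint genes were not called in any case. The Aurora kinase genes had log2 fold changes of 0.72 (*Aurka*, adjusted p = 0.330) and -0.06 (*Aurkb*, adjusted p = 0.957), and the Polo kinase gene *Plk1* of -0.05 (adjusted p = 0.947). The spindle checkpoint genes *Bub1b* and *Bub1* had 0.35 (adjusted p = 0.738) and -0.40 (adjusted p = 0.809), and *Birc5*, survivin, had 0.12 (adjusted p = 0.891). *Aurka* lay at 1.60 to 6.04 CPM in the controls and 3.64 to 8.30 CPM in the mutants. *Bub1* was the member nearest to the count filter, with a fourth-highest count of 39, followed by *E2f8* with 49. No member lay outside the filter.

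Both members listed as factors that work with the anaphase-promoting complex, the ubiquitin ligase that ends mitosis, had negative log2 fold changes. That of the activator gene *Cdc20* was -0.69 (SE 0.73, adjusted p = 0.590), and that of the conjugating enzyme gene *Ube2c* -0.78 (SE 0.38, adjusted p = 0.220). *Ube2c* was 6.27 to 10.2 CPM in controls and 2.16 to 7.59 CPM in mutants. In *Cdc20*, mutant 1 was at 0.675 CPM and mutants 2 and 3 at 8.12 and 8.22 CPM, within the range of controls (3.05 to 13.1 CPM).

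Of the 6 genes for spindle motors and microtubule proteins none was called, and their log2 fold changes had a median of -0.33. *Kif11*, the motor that pushes spindle poles apart, had -1.08 (SE 0.72, adjusted p = 0.367), with 7 counts in mutant 4 and 65 to 137 in the other mutants. *Tpx2*, which activates Aurora A on the spindle, had -0.87 (SE 0.56, adjusted p = 0.355). The cytokinesis motor gene *Kif23* had 0.01, with 0 counts in mutant 4 and 164 to 244 in the other mutants. The other cytokinesis motor gene, *Kif20a*, had -0.59 with 0 counts in mutant 3, and 29.3% of its exon bases are shared with *Cdc23*. The midzone protein gene *Prc1* had -0.06 and the spindle protein gene *Nusap1* 0.13.

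*Mki67* had 2.02, 5.83, 5.23 and 3.55 CPM in controls 1 to 4. It had 2.88, 6.37, 7.72 and 5.74 CPM in mutants 1 to 4. The groups overlapped, replicate 1 was the lowest of each group, and the log2 fold change was 0.45 (SE 0.43, adjusted p = 0.545). *Top2a*, the topoisomerase that untangles sister chromatids, had 6.77, 5.65, 5.23 and 12.3 CPM in controls and 2.55, 5.10, 9.61 and 7.21 CPM in mutants. Its log2 fold change was -0.29 (SE 0.45, adjusted p = 0.726). The standard errors of both genes were above those of the 5 genes called higher (0.22 to 0.30).

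These genes were expressed at a low level in both groups. Their median RPKM was 1.31 in controls and 1.50 in mutants, beside 3.03 and 2.93 over all genes tested, and 32 of 43 in controls and 33 in mutants lay under the median of all genes. *Cenpf* was the lowest in controls (0.179 ± 0.0495 RPKM, SD, n = 4) and reached 0.689 ± 0.122 in mutants. *Cdk1* went from 1.89 ± 0.407 to 3.40 ± 0.488 RPKM and *Cenpa* from 1.72 ± 0.266 to 4.49 ± 0.979. Summed over the 43 genes, the level was 372 to 490 CPM in controls and 404 to 465 CPM in mutants, so that the range of the mutants lay within that of the controls. Abundant members weigh most in this sum, and it does not show that the genes kept their levels. The 9 licensing and helicase genes, *Mcm3* among them, summed to 158 to 236 CPM in controls and 121 to 173 CPM in mutants. The 3 centromere genes summed to 12.4 to 18.1 CPM in controls and 33.7 to 46.4 CPM in mutants.

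The members also had a larger median spread between mice of a group than the genes at large. The median SD of log2 CPM was 0.49 in controls and 0.67 in mutants, beside 0.42 and 0.46 over all genes tested. The members were also at a lower level, and the spreads were not compared at matched level. Their median of mean CPM was 4.74 in controls and 5.26 in mutants, beside 9.13 and 9.44 over all genes tested. In 7 members (16.3%) a library with at most 3 counts stood beside one of its own group with at least 100, which was the case for 4.76% of all genes. These were *Hells* and *Uhrf1* in controls and *Ccne1*, *Cenpe*, *E2f8*, *Kif20a* and *Kif23* in mutants. Both control gaps were in control 1, and those of *Ccne1* and *Kif23* were in mutant 4. Those of *Cenpe* and *Kif20a* were in mutants 1 and 3. Standard errors of the log2 fold change ran from 0.20 (*Mcm7*) to 1.16 (*E2f8*) with a median of 0.45.

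Some of this spread was shared among genes. Mutant 1 was the lowest of the mutants in 15 of 23 mitotic members, whereas it was the lowest in 26.0% of all genes. Mutant 3 was the highest mutant in 11 of the 23, and in 24.9% of all genes. Control 2 was the highest control in 11 of the 23, and in 18.2% of all genes. Among the 20 replication members, control 2 was likewise the highest control in 9 and mutant 3 the highest mutant in 8. Mutant 4 was the lowest mutant in 9 of those 20, and in 29.1% of all genes. Control 1 was the lowest control in 12 of 20 replication members, and in 25.6% of all genes. Control 1 and mutant 1 also held the most neuronal RNA, with 353 and 328 CPM summed over 7 neuronal markers, against 33.3 to 121 CPM in the other controls and 102 to 151 CPM in the other mutants. Control 2 held the most RNA of neutrophils and their precursors (2074 CPM over 8 markers, against 273 to 1072 CPM in the other 7 mice). Among mutants, mutant 3 held the most (792 CPM), close to mutant 4 (734 CPM) and mutant 2 (637 CPM). *Mpo*, a granule gene of the precursors, was at 1.29, 56.4, 64.0 and 7.42 CPM in controls 1 to 4 and at 14.5, 0.0648, 81.8 and 0 CPM in mutants 1 to 4. It was thus high in controls 2 and 3 and in mutant 3. *Mpo* is 1 of the 8 markers and did not follow their sum. Control 3 had the most *Mpo* of the controls but a sum of 754 CPM, under those of controls 1 (1072 CPM) and 2. This mouse was the highest control in 1 of the 23 mitotic members and the lowest in 8. Over all genes it was the highest control in 27.4% and the lowest in 28.2%. The part of these cell types in the members' values was not tested. Of the 8 precursor and neutrophil markers, 2 were lower in mutants, *Camp* and *Ltf*. No marker of neurons (7), oligodendrocytes (8), monocytes (6), erythroid cells (6) or neural progenitors (5 tested of 7) was called, and 1 was lower in each of the lists for astrocytes (*Slc1a3*) and for vessels (*Pdgfrb*). Of the 9 lymphocyte markers, 2 were higher in mutants, as given above, 0 were lower and 7 were not called. Their sum was 70.8 to 98.3 CPM in controls and 110 to 181 CPM in mutants, without overlap. The part of lymphocytes in the members' values was not tested either.

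**Figure D4:**
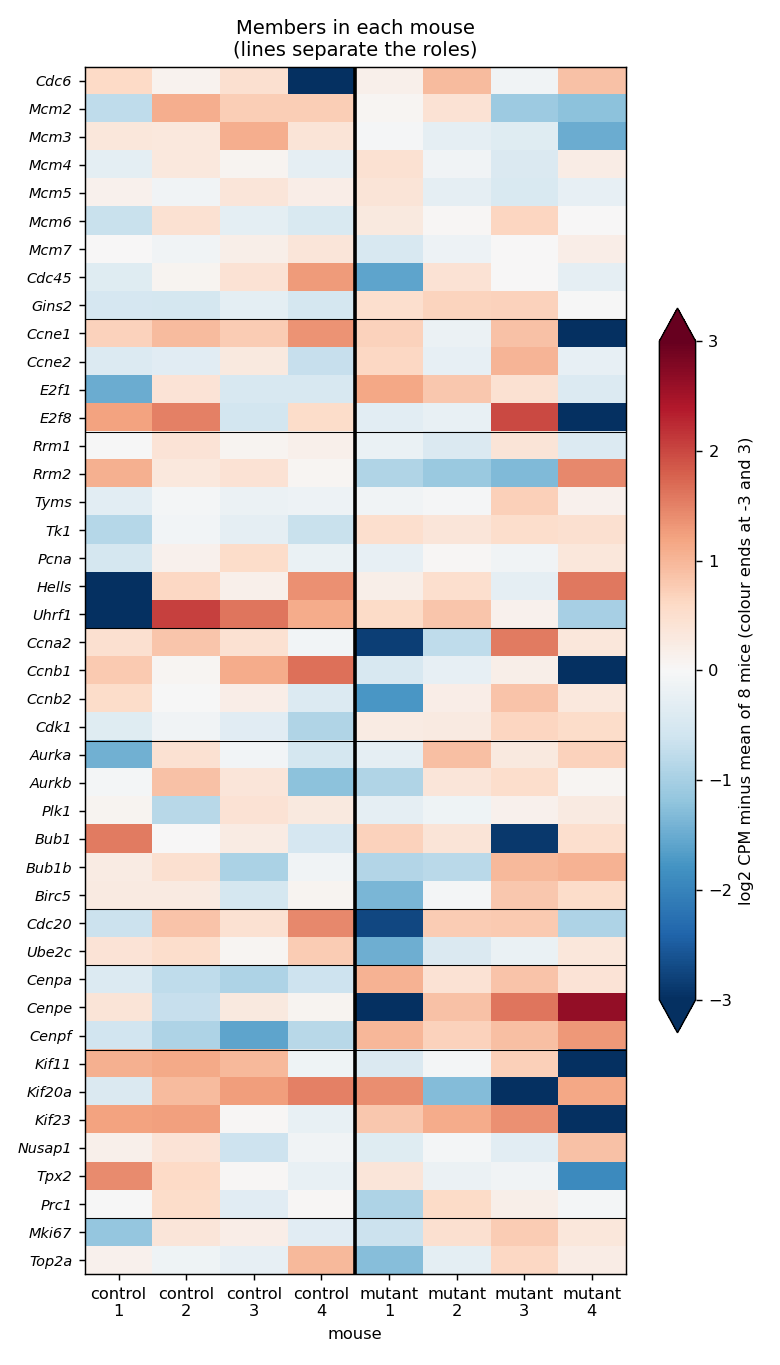
Log2 CPM of the 43 genes in each of the 8 mice, shown as the difference from the gene's mean over all mice, with lines between the roles and colours ending at -3 and 3. Mutant 1 is blue in most mitotic genes, single dark cells mark libraries with few or no counts, and *Cenpa*, *Cenpf*, *Cdk1*, *Tk1* and *Gins2* are blue in all controls and white to red in all mutants.

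The regulators of the cycle outside the 43 genes were taken from 144 further genes in 8 lists, of which 138 passed the filter. Of these, 3 were higher, 9 were lower and 126 were not called, with a median log2 fold change of -0.10. Over all genes, 4.36% were called higher and 7.97% lower, as given above.

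*Ccnd2*, the D cyclin of G1, had the largest of the 3 rises. It had 123, 100, 39.0 and 111 CPM in controls 1 to 4 and 242, 259, 231 and 221 CPM in mutants 1 to 4. Every mutant was above every control, control 3 was the lowest mouse, and the log2 fold change was 1.35 (SE 0.31, adjusted p = 0.0233). Without control 2 or mutant 2 the call was lost (adjusted p 0.0612 and 0.0615). The other D cyclin genes had -0.23 (*Ccnd1*, adjusted p = 0.462) and 0.20 (*Ccnd3*, adjusted p = 0.435), and their kinases -0.08 (*Cdk4*, adjusted p = 0.743) and -0.02 (*Cdk6*, adjusted p = 0.964). *Myc*, a growth regulator, had -0.10 (adjusted p = 0.857).

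Of 7 genes for inhibitors of cyclin-dependent kinases, 6 were tested and edgeR called none, whereas DESeq2 called 3 higher. *Cdkn1b*, p27, had 7.21, 9.56, 8.59 and 6.24 CPM in controls and 11.7, 12.1, 17.4 and 14.0 CPM in mutants. Its groups did not overlap, and its log2 fold change of 0.80 (SE 0.24, adjusted p = 0.0578) passed only with DESeq2 (adjusted p = 0.0113) and with library totals as scaling (adjusted p = 0.0335). *Cdkn1c*, p57, did not overlap either (29.0 to 96.7 CPM against 101 to 148 CPM), with 0.89 (SE 0.33, adjusted p = 0.110, with DESeq2 0.0330). Of its exon bases, 30.7% are shared with *Gm44732*. *Cdkn2c*, p18, had 0.90 (adjusted p = 0.0871, with DESeq2 0.0291) and *Cdkn1a*, p21, 0.64 (adjusted p = 0.198). *Cdkn2b* and *Cdkn2d* had -0.13 and -0.09.

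Of 23 genes for replication polymerases and the clamp, 2 were called higher, 2 lower and 19 in neither direction. *Dut*, which clears dUTP, rose by 0.97 (SE 0.20, adjusted p = 0.0152), with 9.76 to 16.0 CPM in controls and 23.8 to 30.5 CPM in mutants, and its adjusted p was 0.0502 without control 2. *Rfc4*, a clamp loader subunit, rose by 1.08 (SE 0.30, adjusted p = 0.0469), with 12.7% of its exon bases shared with *Eif4a2*. Its call was lost without any mouse but mutants 1 and 2 (adjusted p 0.0755 to 0.106) and without the count filter (0.0794). *Prim2*, a primase subunit, fell by 1.76 (SE 0.36, adjusted p = 0.0129), with 10.9 to 29.1 CPM in controls and 3.45 to 6.20 CPM in mutants. Of the E2F and Rb group, *E2f3* fell by 1.94 (SE 0.36, adjusted p = 0.00914), with 6.33 to 13 CPM in controls and 1.88 to 4.25 CPM in mutants. *Foxm1*, the activator of mitotic genes, had -1.34 (SE 0.60, adjusted p = 0.180), *Mybl2* 0.49, *Rb1* -0.22, *Rbl1* -1.07 (adjusted p = 0.164) and *Rbl2* -0.58 (adjusted p = 0.205).

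The largest of the 9 falls was in *Ncaph*, a subunit of condensin I, which compacts chromosomes in mitosis. It had 30.9, 40.3, 51.3 and 48.4 CPM in controls 1 to 4 and 11.7, 6.52, 1.0 and 6.65 CPM in mutants 1 to 4, with every mutant below every control (log2 fold change -2.72, SE 0.58, adjusted p = 0.0168). Without mutant 2 its adjusted p was 0.0525. *Espl1*, separase, which cuts cohesin at anaphase, had 21.3 to 23.5 CPM in controls and 7.64 to 9.69 CPM in mutants (log2 fold change -1.36, SE 0.18, adjusted p = 0.00134). Of the p53 targets, *Sesn2*, a stress response gene, fell by 1.23 (SE 0.25, adjusted p = 0.0127). The other 4 genes called lower, *E2f4* (-0.82), *Rfc3* (-0.75), *Mdm2* (-0.94) and *Sesn1* (-0.83), were outside the 5 largest falls and are named because the plot of regulators shows them. The calls of *E2f3*, *E2f4*, *Espl1* and *Sesn2* held under all 15 alternative settings. Those of *Rfc3*, *Mdm2* and *Sesn1* were each lost in 6 of the 8 fits that left out a mouse (adjusted p up to 0.0881, 0.116 and 0.123), with library totals as scaling and without the count filter. *Rfc3* kept its call without control 1 or mutant 3, *Mdm2* without control 4 or mutant 1, and *Sesn1* without control 1 or mutant 1.

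**Figure D5:**
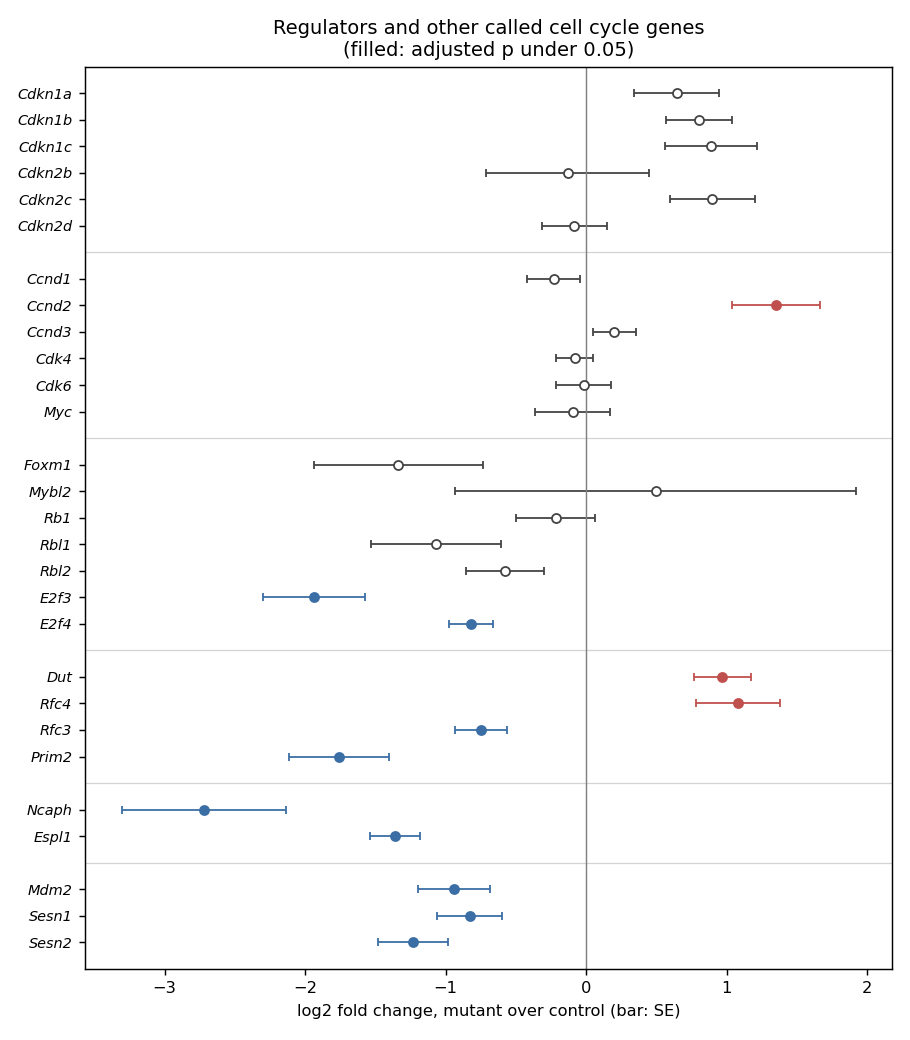
Log2 fold change of mutants over controls (points) with its SE (bars) for the named regulators and the other cell cycle genes that were called, where filled points passed an adjusted p of 0.05. *Ccnd2*, *Dut* and *Rfc4* lie right of 0, from 0.97 to 1.35, and the 9 filled points left of 0 run from -0.75 to -2.72.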

How the data were processed

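RNA from sorted microglia of 4 mutant and 4 control mice was analysed, with 1 library per mouse. According to the Methods, the authors sorted the cells by flow cytometry and used Rsubread to align reads to mm10 and featureCounts to make the gene counts, which they deposited raw. The Methods describe polyA-selected NEBNext paired-end libraries, the labels Nextera XT single-end ones, and both call them unstranded. A second table that the authors deposited holds their own DESeq2 comparison, with log2 fold changes and p-values, which was not used. The submitters' processing notes name DESeq2 1.28.

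From the deposited counts, genes were kept where 4 or more of the 8 libraries had 10 or more counts. EdgeR 4.0.16 in R 4.3.3 (TMM, estimateDisp, glmQLFit, glmQLFTest, no block) compared mutants with controls, with Benjamini-Hochberg adjustment over all 20153 genes and a threshold of 0.05. The SE is the log2 fold change divided by the root of the F statistic. CPM used TMM-scaled totals, log2 CPM a prior count of 2, and RPKM the union exon length of GENCODE M21 on GRCm38, which matched 55480 of 55573 genes. The fit was tested on simulated data. The biological coefficient of variation was 0.542, so that differences between libraries more than counting noise set the precision. With 1 library per mouse, differences between mice and those of sorting and library preparation cannot be told apart. No libraries of a group agreed within counting noise (the lowest chi-square per gene was 98.9). Nothing in the labels says that the mice were handled in separate batches.

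The 43 genes, the role lists, the 144 further genes and the marker lists were chosen with earlier results of these data known. Named were all members, up to 5 called genes with the largest change each way among the further genes, the CDK inhibitors, D cyclins and other regulators, the targeted and sex-linked genes and leading markers. Exon overlap and shared 50-base words were computed from GENCODE M21, and promoter letters were searched in RefSeq windows. Alternatives were DESeq2 1.42.0, RLE size factors, library totals, no filter, a filter of 10 counts in every library, the replicate block and each mouse left out. Leaving out replicate 1 of both groups was added after seeing the data. Figures were drawn with matplotlib 3.10.9.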

Additional observations from a re-analysis of the deposited data

Results flagged for a closer look

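In 8 of 86 groups of 4 mice (43 genes in 2 groups), 1 mouse lay apart from the other 3 by more than Dixon's 95% critical value, as a share of the group's range on the log2 CPM scale. Chance alone flags about 1 in 20 such groups. The mouse was the lowest in 5 of them and the highest in 3, and the causes were not tested.

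*Uhrf1* in control 1 was at -4.26 log2 CPM with 0 counts, and the other controls were at 2.16 to 3.08. *Kif23* in mutant 4 was at -4.26 log2 CPM with 0 counts, against 2.11 to 2.67. *Bub1* in mutant 3 was at -3.21 with 2 counts, against 0.06 to 0.38. *Cdc6* in control 4 was at -2.23 with 6 counts, against 0.91 to 1.41. *Kif11* in control 4 was at 1.10 with 78 counts, against 2.21 to 2.39.

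*Rrm2* in mutant 4 was at 4.07 log2 CPM with 608 counts, and the other mutants were at 1.31 to 1.74. *Mcm3* in control 3 was at 6.85 with 4122 counts, against 6.08 to 6.13 in the other controls, and without this mouse the log2 fold change of *Mcm3* was -0.79 (adjusted p = 0.178). *Gins2* in control 3 was at 2.35 with 180 counts, against 2.10 to 2.13, a small gap that stands apart because the other controls lay close together.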

How the results depend on the processing

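The 5 members called higher became 2 without a count filter, 2 with the replicate block and 2 without replicate 1 of both groups, and 2 to 3 without any 1 mouse. In each of these fits *Cenpa* and *Cenpf* were among them. No member was called lower, but 1 was with DESeq2 and with at least 10 counts in all 8 libraries (*Mcm3* in both), and 0 to 1 without 1 mouse, where the 1 was *Rrm2* without mutant 4. The median log2 fold change of the members (-0.05) stayed within their spread between mice (0.25), but was above 0 with library totals (0.07, where the median of all genes moved by 0.12), with counts in all libraries (0.02), without control 2 (0.004), mutant 1 (0.05) or replicate 1 of both groups (0.04). The 3 further cell cycle genes called higher became 8 with DESeq2 and 0 to 3 without 1 mouse, with 0 without control 2, and the 9 called lower became 15 with DESeq2 and 5 to 9 without 1 mouse, with 5 without mutant 2. Over all genes, 878 higher and 1607 lower became 1863 and 2360 with DESeq2, and 525 to 1024 and 1005 to 1587 without 1 mouse. The labels do not say what the replicate numbers stand for, and they were not taken as pairs. Deviations of same-numbered mice correlated by 0.17, 0.14 and 0.11 for numbers 1, 3 and 4 and by 0.02 for number 2, against -0.22 to 0.11 for mice of different numbers, and control 2 did not correlate best with mutant 2. Of the genes named, with the block the calls of *Cdk1*, *Tk1*, *Gins2*, *Rfc4*, *Prim2* and *Sesn1* were lost, that of *Cdkn1c* was gained and no other changed. With 4 mice a group and a biological coefficient of variation of 0.542, the SE of a member's log2 fold change was 0.20 to 1.16, and sex and genotype cannot be told apart. The causes of the other changes were not tested.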
